A study of Homo sapiens with 10 samples.

Results

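The genes described here are 42 genes of glycolysis and of the response to hypoxia (low oxygen): glucose transporters, glycolytic enzymes and their regulators, lactate and pyruvate genes, targets of the hypoxia-inducible factors (HIFs), and HIF subunits with the prolyl hydroxylases that act on them. They were chosen by gene symbol from the 58676 genes of the deposited count tables, with no threshold on a measured value, in a list drawn up with earlier results of these data known. All 42 symbols were found, and 41 passed the filter on low counts and were tested. CA9, a carbonic anhydrase and a widely used HIF target, did not pass: it had 1 read in each of the libraries BRSK1 replicate 1, hcRED replicate 1 and Mock replicate 3 and none in the other 7.

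The study measured RNA by sequencing in HEK293T cells, an immortalized line derived from human embryonic kidney that carries the SV40 large T antigen. All 10 libraries came from this line, grown in DMEM with 10% FBS. In 3 samples BRSK2 and in 3 samples BRSK1 was overexpressed for 24 h. Both are serine/threonine kinases of the AMPK-related family. The controls were 2 samples that expressed hcRED, a red fluorescent protein, for 24 h (replicates 1 and 3) and 2 mock samples (replicates 2 and 3), for which the labels name no expressed gene. The labels give neither the vector nor the delivery method, and they do not say whether the samples of a group came from separate cultures, so the spread behind each p-value is that of the samples sequenced and could be technical only. The question put to these genes was how their RNA levels differed with each kinase from the controls, and from hcRED alone.

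Total counts per library ran from 16516116 to 24304302. The label check held in every library: BRSK2 took between 6.99% and 10.4% of all counts in its own 3 libraries and at most 0.00990% in the others, and BRSK1 took between 4.72% and 6.96% in its own and at most 0.00287% in the others. All 10 markers of HEK293T cells were above 1 CPM (counts scaled to a common library total) in every library, with a summed level from 522 to 636 CPM. Markers of endothelial cells and hepatocytes stayed below 1 CPM, and PTPRC, the defining gene of blood leukocytes, had no read in any library. Of the 5 fibroblast markers, 3 had a mean above 1 CPM, led by COL1A1 at a mean of 28.8 CPM, and the fibroblast sum was lower in BRSK2 replicates 2 and 3 and BRSK1 replicates 2 and 3 (25.5 to 28.1 CPM) than in the controls (32.5 to 40.9 CPM). The part of that sum in the results was not tested.

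Glycolysis splits glucose into pyruvate in a chain of enzymes, most of which exist as several paralogs with tissue-specific use. Pyruvate is either reduced to lactate by lactate dehydrogenase or enters the mitochondrion, where the pyruvate dehydrogenase kinases restrain its use. HIF1A and EPAS1 (HIF-2 alpha) are hydroxylated by the EGLN prolyl hydroxylases when oxygen is present and are then degraded through VHL. When oxygen is low they escape this, pair with ARNT and bind a short core motif, ACGTG or GCGTG, near genes such as SLC2A1, LDHA, PGK1, VEGFA and EGLN3. Cultured transformed lines express much of this program in normal air, and HIF is controlled mainly at the protein level, which these data do not measure.

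The 250 bases before the RefSeq start site of 4 genes are shown because the results below turn on them: LDHA, PGK1 and PGAM1 were lower with a kinase and ENO2 was higher. Capitals mark every match to ACGTG or GCGTG on either strand, so that CACGT and CACGC are matches read on the other strand. The sequences come from RefSeq, build GRCh38.p14, and all are on the plus strand. The windows are chr11:18396101-18396350 for LDHA, chrX:78103998-78104247 for PGK1, chr10:97427568-97427817 for PGAM1 and chr12:6914330-6914579 for ENO2.
LDHA: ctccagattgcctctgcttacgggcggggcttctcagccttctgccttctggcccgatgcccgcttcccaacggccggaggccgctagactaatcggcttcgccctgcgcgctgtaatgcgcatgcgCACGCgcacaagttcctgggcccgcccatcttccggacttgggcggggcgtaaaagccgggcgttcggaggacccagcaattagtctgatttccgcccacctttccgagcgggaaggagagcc
PGK1: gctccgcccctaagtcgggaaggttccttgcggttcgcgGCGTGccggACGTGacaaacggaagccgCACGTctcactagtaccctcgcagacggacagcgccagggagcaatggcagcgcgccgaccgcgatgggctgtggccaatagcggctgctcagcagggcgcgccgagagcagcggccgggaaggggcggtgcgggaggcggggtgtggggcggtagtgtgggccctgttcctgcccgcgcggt
PGAM1: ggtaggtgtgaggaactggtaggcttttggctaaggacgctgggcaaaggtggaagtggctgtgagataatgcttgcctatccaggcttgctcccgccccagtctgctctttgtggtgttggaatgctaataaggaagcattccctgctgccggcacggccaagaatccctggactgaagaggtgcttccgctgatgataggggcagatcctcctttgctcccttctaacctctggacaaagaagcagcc
ENO2: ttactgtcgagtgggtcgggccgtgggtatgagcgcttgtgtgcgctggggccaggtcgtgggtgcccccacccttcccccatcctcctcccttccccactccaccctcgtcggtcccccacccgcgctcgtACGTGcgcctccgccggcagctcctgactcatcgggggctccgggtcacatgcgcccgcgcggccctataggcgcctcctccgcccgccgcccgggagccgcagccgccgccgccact
The PGK1 window held 3 matches, LDHA and ENO2 held 1 each, and PGAM1 held 0. All 4 windows lie downstream of the gene start given with the deposited counts. Those starts are 18394388 for LDHA, 78065188 for PGK1, 97426160 for PGAM1 and 6913745 for ENO2. The bases before these starts were not searched, so a count of matches holds for the printed window only. Of the 42 genes, 36 had an entry in the RefSeq promoter table, and 26 of these 36 (72.2%) held at least 1 match, beside 43.2% of all 35116 promoter windows of the same length. For ACGTG alone the counts were 16 of 36 (44.4%) and 18.5% of all windows. An ACGTG within the palindrome CACGTG was found in 6 of the 36 (16.7%) and in 6.34% of all windows. By outcome, a match stood in 5 of the 9 windows of genes called lower with either kinase against the controls, in 1 of the 2 windows of genes called higher, and in 20 of the 25 others. The others include CA9, which was not tested and whose window held 1 match. A match is a description of the letters and not a binding site.

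Levels are compared between genes as TMM-scaled CPM per kb of the longest annotated transcript (GENCODE 29), as means over the 10 libraries. ENO1, which makes phosphoenolpyruvate, was the highest at 1290 CPM per kb, followed by GAPDH at 751, PKM (pyruvate kinase) at 572, TPI1 at 488, LDHA at 344 and PGAM1 at 269. GPI came next at 98.7, so that a gap separated these 6 genes from all others. With the gene length given in the deposited tables in place of the transcript length, the same 6 genes led, but PKM fell to the fifth place. The lowest tested gene was SLC16A3, the lactate exporter MCT4, at 0.523 CPM per kb, preceded by ANKRD37, a HIF target.

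**Figure D1:**
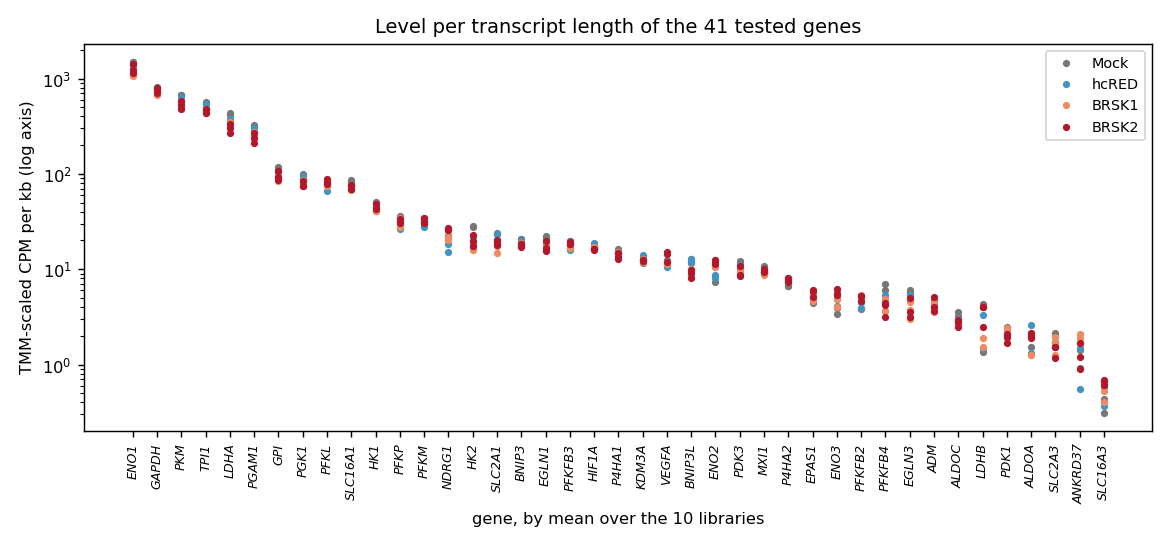
Level of each of the 41 tested genes (x axis, ordered by the mean over the 10 libraries) in TMM-scaled CPM per kb of the longest transcript (y axis, log scale); each point is a library, coloured by group. The 6 leading genes, ENO1 to PGAM1, lie at 211 CPM per kb or above in every library, and the groups overlap for most genes at this scale.

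Within the paralog families a lone member made up nearly all of the level per kb in some cases. ENO1 made up 98.4% to 99.3% of the summed enolase level, LDHA 98.5% to 99.7% of lactate dehydrogenase, and SLC16A1 (the lactate transporter MCT1) at least 99.0% of the 2 monocarboxylate transporters. Of the 2 glucose transporters, SLC2A1 (GLUT1) held 90.6% to 93.9%. Other families were shared. HK1 held 63.8% to 71.9% of the hexokinase level and HK2 the rest, PFKL 54.9% to 58.2% of phosphofructokinase, PFKFB3 63.6% to 70.1% of the 3 PFKFB isozymes, and HIF1A 73.3% to 79.8% of the 2 HIF alpha subunits. The genome also carries many pseudogenes of these genes, to which reads can be lost, but their summed counts came to at most 1.45% of the parent gene, for SLC2A3.

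Some members could not be read cleanly. ALDOA, usually among the most abundant glycolytic RNAs, had a mean of only 3.02 CPM. It shares nearly its whole span, and its strand, with the gene model AC093512.2, which had 4.24 CPM on average. How reads that fall in both models were counted is not given in the sources used here, so ALDOA values are uncertain. ALDOC, at 5.71 CPM, likewise overlaps a protein-coding model of the same strand. Neither aldolase gene was called in any comparison. ENO3 (7.30 CPM) overlaps PFN1 (361 CPM), PFKFB2 (33.6 CPM) overlaps YOD1 (55.9 CPM), SLC16A3 (2.53 CPM) overlaps CSNK1D (215 CPM) and BNIP3L (37.8 CPM) overlaps PNMA2 (20.8 CPM), each on the opposite strand. Whether the counting used strand is not given in the sources used here. PFKM (100.3 CPM) overlaps SENP1 (45.3 CPM) on the opposite strand. EGLN3 (12.8 CPM) overlaps SPTSSA (39.4 CPM) on the same strand, and ENO2 (29.6 CPM) overlaps LRRC23 (3.88 CPM) on the same strand. LDHB was low and uneven within groups, with 3.78, 6.20 and 6.17 CPM in BRSK2, 2.32, 6.15 and 2.95 in BRSK1, 5.04 and 2.30 in hcRED and 6.66 and 2.08 in Mock, so no difference between groups could be read from it.

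Against the controls, taken as the average of the hcRED group and the Mock group, BRSK2 changed 11 of the 41 tested genes at an adjusted p under 0.05 (edgeR's quasi-likelihood test, Benjamini-Hochberg adjustment over all 16936 tested genes), 26.8% of them, where 7.82% of all tested genes were called. The 7 that fell were TPI1, PGK1, PGAM1, PKM, LDHA, BNIP3L and EGLN3 (3.05% of all genes fell), and the 4 that rose were ENO2, ENO3, VEGFA and NDRG1 (4.77% of all genes rose). BRSK1 also changed 11, where 6.43% of all tested genes were called: SLC2A1, HK2, TPI1, PGAM1, ENO1, PKM, LDHA, BNIP3L and EGLN3 fell (2.66% of all genes fell), and ENO2 and PFKFB2 rose (3.77% of all genes rose). All called changes were small, between -0.54 and 0.49 on the log2 scale. The median log2 fold change of the 41 genes was -0.12 with BRSK2 and -0.11 with BRSK1, beside 0.00 over all tested genes in both comparisons, and 25 and 30 of the 41 values were negative. All 3 BRSK2 libraries lay below all 4 controls in 7 of the 41 genes (8.2% of all tested genes) and above them in 6 (9.09%), and for BRSK1 these counts were 8 (8.44%) and 4 (9.93%). The comparisons of the 2 kinases share the control libraries, so their likeness is no independent evidence. In bulk RNA, fewer cells of a type and less RNA per cell cannot be told apart.

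The counts depended on the libraries and on the scaling, and the share of all tested genes called moved with them. With BRSK2 that share was 7.82%. It was 13.1%, 3.81% and 2.05% without BRSK2 replicates 1, 2 and 3 in turn, and 17.7% with library totals. With BRSK1 it was 6.43%, and it was 2.46% without BRSK1 replicate 2 and 1.21% without BRSK1 replicate 3. The BRSK2 count of 11 became 18 when BRSK2 replicate 1 was left out. It became 6 on leaving out BRSK2 replicate 2 and 4 for BRSK2 replicate 3. It was 21 with library totals in place of TMM factors, a scaling that lowers the median of all genes by 0.10 (log2 fold change -0.10). The BRSK1 count of 11 became 1 on leaving out BRSK1 replicate 2 and 2 for BRSK1 replicate 3. Both counts also fell without hcRED replicate 1, Mock replicate 2 or Mock replicate 3, as did the share of all tested genes called. Without hcRED replicate 3 the share fell and neither count did. Each of these fits left 1 library in a control group. The median log2 fold change of the 41 genes was -0.09 with BRSK2 and -0.10 with BRSK1 without hcRED replicate 1. It was -0.16 and -0.15 without hcRED replicate 3.

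**Figure D2:**
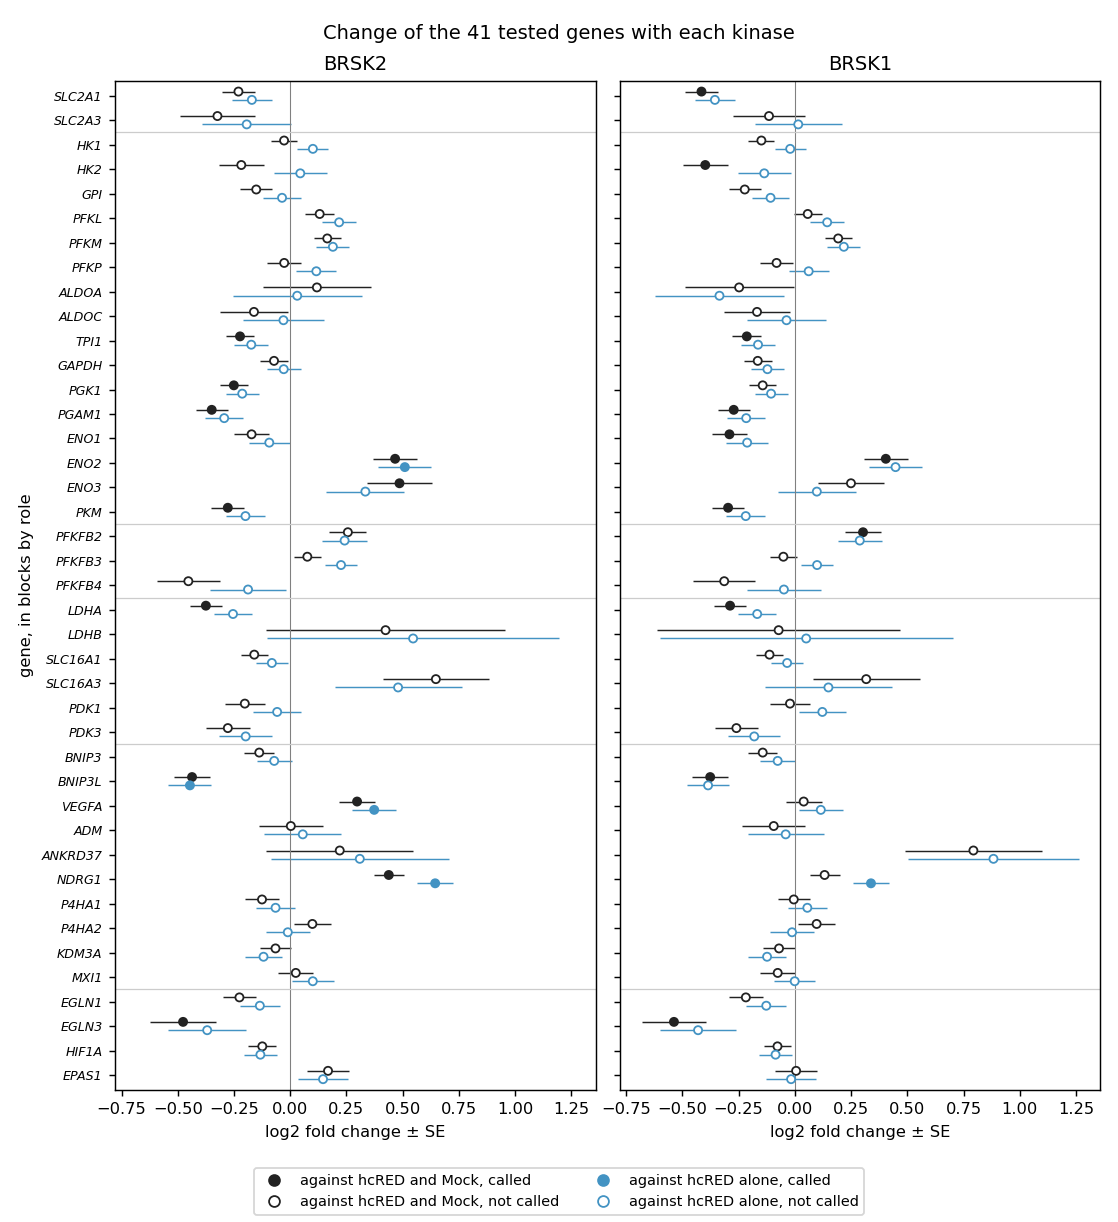
Log2 fold change ± SE of the 41 tested genes (y axis, in blocks by role) with BRSK2 (left) and BRSK1 (right), against the mean of hcRED and Mock (black) and against hcRED alone (blue); filled points passed an adjusted p under 0.05. Against both controls 11 points are filled in each panel, and against hcRED alone 4 with BRSK2 and 1 with BRSK1.

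The glucose transporter SLC2A1 (ENSG00000117394, chr1:42925375-42959173, minus strand, hg38), the main carrier of glucose into most cultured cells, fell with BRSK1. Its level was 68.9, 54.4 and 63.9 CPM in the BRSK1 libraries, 84.9 and 74.6 in hcRED and 86.9 and 86.4 in Mock, so that all 3 BRSK1 libraries lay below all 4 controls. The log2 fold change was -0.41 ± 0.08 (adjusted p = 0.00262), 0.750 times the control level, and the call held without each library in turn. With BRSK2 the level was 71.2, 74.8 and 66.5 CPM, overlapping hcRED replicate 3, and the change of -0.23 ± 0.08 (adjusted p = 0.0607) did not pass. SLC2A3, the high-affinity transporter GLUT3, was low, at 4.58 to 8.42 CPM in all libraries, and passed with neither kinase (-0.32 ± 0.17 (adjusted p = 0.247) for BRSK2 and -0.11 ± 0.16 (adjusted p = 0.729) for BRSK1).

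Of the 16 glycolytic enzymes, 4 fell and 2 rose with BRSK2, and 5 fell and 1 rose with BRSK1. The median log2 fold change of the 16 was -0.11 with BRSK2 and -0.17 with BRSK1. Among the enzymes of the upper part of the pathway, only HK2 was called, and only with BRSK1. HK2, the hexokinase that is induced in many tumours, had 112, 102 and 92.2 CPM in BRSK1, 130.3, 115 and 101 in BRSK2, 126 and 97.7 in hcRED and 163 and 159 in Mock. hcRED replicate 3 thus lay within the BRSK1 range, and only the Mock libraries stood above all others. The change with BRSK1 was -0.40 ± 0.10 (adjusted p = 0.0321), and that with BRSK2 was -0.22 ± 0.10 (adjusted p = 0.208). The HK2 call was lost without any of 6 libraries in turn (BRSK1 replicates 2 and 3, BRSK2 replicate 2, hcRED replicate 1 and Mock replicates 2 and 3, adjusted p from 0.0571 to 0.136), and with the 4 controls taken as 1 group (adjusted p = 0.254).

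The other upper enzymes did not pass with edgeR. HK1, the constitutive hexokinase, had a log2 fold change of -0.03 ± 0.06 with BRSK2 and -0.15 ± 0.06 with BRSK1, and GPI, the glucose phosphate isomerase, had -0.15 ± 0.07 (adjusted p = 0.197) and -0.22 ± 0.07 (adjusted p = 0.0585). The phosphofructokinase subunit PFKM had 98.4, 104 and 109.9 CPM in BRSK2 and 112, 106 and 101 in BRSK1, above all 4 controls (94.2 and 88.4 in hcRED and 92.4 and 96.6 in Mock), yet the values of 0.16 ± 0.06 (adjusted p = 0.1004) and 0.19 ± 0.06 (adjusted p = 0.0572) missed the threshold. With BRSK1, GPI (adjusted p = 0.0301) and PFKM (adjusted p = 0.0417) passed with DESeq2. Without BRSK2 replicate 1 both passed with BRSK2 (adjusted p = 0.0145 and 0.0343) and with BRSK1 (adjusted p = 0.0115 and 0.0284), and GPI passed with BRSK1 also without hcRED replicate 3 (adjusted p = 0.0458). PFKL and PFKP, the other subunits, lay between -0.08 ± 0.07 and 0.13 ± 0.06 in both comparisons.

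The enzymes below the aldolase step held most of the genes that fell. TPI1 (ENSG00000111669, chr12:6867119-6870948, plus strand), the triose phosphate isomerase, fell with both kinases. It had 835, 818 and 763 CPM in BRSK2 and 843, 828 and 761 in BRSK1, below 962 and 854 in hcRED and 1004 and 943 in Mock, although the lowest control and the highest kinase library differed by little. The log2 fold changes were -0.22 ± 0.06 (adjusted p = 0.0324) and -0.21 ± 0.06 (adjusted p = 0.0443). The BRSK2 call was lost without BRSK2 replicate 2 or 3, hcRED replicate 1 or Mock replicate 2 (adjusted p from 0.0797 to 0.218), and the BRSK1 call was lost without any library except BRSK2 replicate 1 and hcRED replicate 3 (adjusted p from 0.0557 to 0.249), with the correction for GC content (adjusted p = 0.0537) and with the 4 controls as 1 group (adjusted p = 0.0598).

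GAPDH, the next enzyme and a common reference gene, did not pass with edgeR, with -0.07 ± 0.06 (adjusted p = 0.535) for BRSK2 and -0.16 ± 0.06 (adjusted p = 0.116) for BRSK1, which passed with DESeq2 (adjusted p = 0.0336) and without BRSK2 replicate 1 (adjusted p = 0.0459). PGK1 (ENSG00000102144, chrX:78065188-78129296, plus strand), which makes the first ATP of the pathway, fell with BRSK2. Its level was 368, 407 and 364 CPM in BRSK2, 423, 400.2 and 405 in BRSK1, 459 and 422 in hcRED and 489.9 and 438 in Mock. All BRSK2 libraries lay below all controls, while the highest BRSK1 library did not. The changes were -0.25 ± 0.06 (adjusted p = 0.0136) for BRSK2, a call lost without BRSK2 replicate 3, hcRED replicate 1 or Mock replicate 2 (adjusted p from 0.0513 to 0.122), and -0.14 ± 0.06 (adjusted p = 0.170) for BRSK1.

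PGAM1 (ENSG00000171314, chr10:97426160-97433441, plus strand), the phosphoglycerate mutase, fell with both kinases and had the largest drop among the enzymes with BRSK2. The libraries had 488, 436 and 386 CPM with BRSK2 and 498, 434 and 451 with BRSK1, all below 559.6 and 511 in hcRED and 562 and 595 in Mock. The log2 fold change was -0.35 ± 0.07 (adjusted p = 0.00378), 0.785 times the control level, with BRSK2 and -0.27 ± 0.07 (adjusted p = 0.0252) with BRSK1. The BRSK2 call was lost only without BRSK2 replicate 3 among the libraries left out (adjusted p = 0.0712), and the BRSK1 call without BRSK1 replicate 2 or 3, hcRED replicate 1 or Mock replicate 3 (adjusted p from 0.0765 to 0.136).

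With BRSK1 the enolases ENO1 and ENO2 moved in opposite directions. ENO1 (ENSG00000074800, chr1:8861002-8879249, minus strand), which makes nearly all of the enolase RNA, had 2968, 2489 and 2673 CPM in BRSK1 and 3315, 2852 and 2662 in BRSK2, beside 3270.2 and 3008 in hcRED and 3469 and 3533 in Mock. It fell with BRSK1, with a log2 fold change of -0.29 ± 0.08 (adjusted p = 0.0274), a call lost without BRSK1 replicate 2 or 3, hcRED replicate 1 or Mock replicate 3 (adjusted p from 0.0651 to 0.147). With BRSK2, where replicate 1 reached into the control range, the value was -0.17 ± 0.08 (adjusted p = 0.183).

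ENO2 (ENSG00000111674, chr12:6913745-6923698, plus strand), the neuronal enolase, rose with both kinases. It had 32.4, 33.3 and 35.4 CPM in BRSK2 and 30.1, 35.2 and 31.6 in BRSK1, above 24.3 and 23.0 in hcRED and 29.6 and 20.7 in Mock. The kinase libraries lay above all 4 controls, and the 2 Mock libraries lay far apart. The log2 fold change was 0.47 ± 0.10 (adjusted p = 0.00459), 1.38 times the control level, with BRSK2, a call that held without each library in turn. With BRSK1 it was 0.40 ± 0.10 (adjusted p = 0.0152), lost without BRSK1 replicate 2 or 3, hcRED replicate 3 or Mock replicate 3 (adjusted p from 0.0509 to 0.0928) and against Mock alone (adjusted p = 0.0628).

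ENO3, the muscle enolase, was called only with BRSK2, at 8.22, 9.44 and 8.33 CPM beside 7.49 and 6.27 in hcRED and 5.96 and 5.20 in Mock. Its change of 0.49 ± 0.15 (adjusted p = 0.0414) was lost without any of 6 libraries in turn (BRSK2 replicates 2 and 3 and each of the 4 controls, adjusted p from 0.0505 to 0.185), with library totals (adjusted p = 0.0676), with the correction for GC content (adjusted p = 0.0573) and with the 4 controls as 1 group (adjusted p = 0.0584). The far more abundant PFN1 overlaps it. ENO1 still made up at least 98.4% of the enolase level per kb in every library.

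PKM (ENSG00000067225, chr15:72199029-72231822, minus strand), the pyruvate kinase gene, fell with both kinases. Its level was 1564, 1435 and 1308 CPM in BRSK2, 1562, 1320.2 and 1369 in BRSK1, 1742 and 1554 in hcRED and 1846 and 1829 in Mock. Replicate 1 of both kinases reached just above hcRED replicate 3, while the Mock libraries stood clear of all others. The changes were -0.28 ± 0.07 (adjusted p = 0.0208) and -0.30 ± 0.07 (adjusted p = 0.0181). Both calls were lost without replicate 3 of that kinase, its replicate 2 or hcRED replicate 1 (adjusted p from 0.0773 to 0.195 for BRSK2 and from 0.0986 to 0.114 for BRSK1). The counts are per gene and do not separate the M1 and M2 isoforms.

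**Figure D3:**
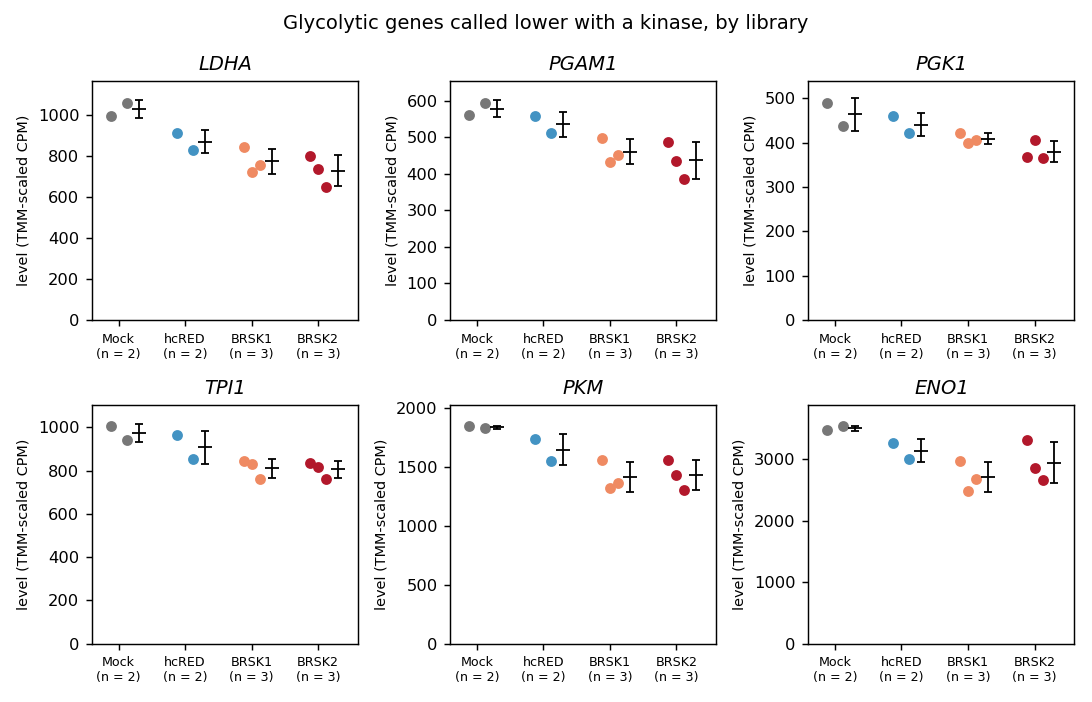
Level in TMM-scaled CPM (y axis, from 0) of 6 glycolytic genes called lower with a kinase, by group (x axis); coloured points are libraries and the black mark beside them is the mean ± SD. In each panel the Mock mean is at the top, the hcRED mean lies between, and the kinase means are lowest, with replicate 1 of a kinase or hcRED replicate 3 often closing the gap.

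The PFKFB enzymes set the level of fructose 2,6-bisphosphate, the main activator of phosphofructokinase. PFKFB2 (ENSG00000123836, chr1:207034366-207081024, plus strand) had 36.2, 38.2 and 35.8 CPM in BRSK1 and 36.9, 36.7 and 33.01 in BRSK2, all above 27.7 and 32.5 in hcRED and 27.2 and 31.7 in Mock. It rose with BRSK1, at 0.30 ± 0.08 (adjusted p = 0.0274), and missed the threshold with BRSK2 (0.26 ± 0.08 (adjusted p = 0.0562)). The BRSK1 call was lost without any of the 3 BRSK1 libraries, hcRED replicate 1 or Mock replicate 2 (adjusted p from 0.0531 to 0.146), and against Mock alone (adjusted p = 0.0519).

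PFKFB3, the hypoxia-inducible isozyme, did not pass with either kinase (0.08 ± 0.06 (adjusted p = 0.480) for BRSK2 and -0.05 ± 0.06 (adjusted p = 0.665) for BRSK1). PFKFB4, another HIF target, had 15.9, 14.95 and 11.3 CPM in BRSK2, 17.6, 13.2 and 15.8 in BRSK1, 19.0 and 13.0 in hcRED and 24.9 and 21.4 in Mock. Both Mock libraries and hcRED replicate 1 were above all kinase libraries, and hcRED replicate 3 lay within their range. The log2 fold changes of -0.45 ± 0.14 (adjusted p = 0.0564) and -0.31 ± 0.14 (adjusted p = 0.187) did not pass.

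Of the 6 lactate and pyruvate genes, LDHA was the only one called, and it fell with both kinases. LDHA (ENSG00000134333, chr11:18394388-18408425, plus strand) had 800.2, 737 and 651 CPM in the BRSK2 libraries, 844, 724 and 756 in BRSK1, 911 and 829 in hcRED and 997 and 1059.7 in Mock. All BRSK2 libraries lay below all controls, and BRSK1 replicate 1 lay just above hcRED replicate 3. The log2 fold change was -0.37 ± 0.07 (adjusted p = 0.00211), 0.771 times the control level, with BRSK2, a call that held without each library in turn. With BRSK1 it was -0.29 ± 0.07 (adjusted p = 0.0193), lost without BRSK1 replicate 2 or 3, hcRED replicate 1 or Mock replicate 3 (adjusted p from 0.0605 to 0.113).

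The other genes at this branch did not pass with edgeR over all 10 libraries. SLC16A1 had a log2 fold change of -0.16 ± 0.06 (adjusted p = 0.104) with BRSK2 and -0.11 ± 0.06 (adjusted p = 0.278) with BRSK1. PDK1, the HIF-induced pyruvate dehydrogenase kinase, had -0.20 ± 0.09 (adjusted p = 0.178) and -0.02 ± 0.09 (adjusted p = 0.920), and PDK3 had -0.28 ± 0.10 (adjusted p = 0.0841) and -0.26 ± 0.10 (adjusted p = 0.107). SLC16A3 was listed at 1.49 to 3.34 CPM and its value of 0.65 ± 0.24 (adjusted p = 0.0945) with BRSK2 rests on 30 to 66 reads per library. Without BRSK2 replicate 1, SLC16A1 (adjusted p = 0.0239) and PDK3 (adjusted p = 0.0109) passed with BRSK2.

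Among the other HIF targets the changes went both ways. BNIP3L (ENSG00000104765, on chromosome 8), a mitochondrial receptor of mitophagy, fell with both kinases. The libraries had 35.8, 32.9 and 29.4 CPM with BRSK2 and 36.3, 31.2 and 34.9 with BRSK1, all below 46.3 and 42.8 in hcRED and 45.9 and 42.1 in Mock. The control groups had nearly the same level. The changes were -0.44 ± 0.08 (adjusted p = 0.00166), 0.739 times the control level, and -0.38 ± 0.08 (adjusted p = 0.00770). The BRSK2 call held without each library in turn, and the BRSK1 call was lost only without BRSK1 replicate 2 (adjusted p = 0.0571). Its paralog BNIP3 did not pass (-0.14 ± 0.07 (adjusted p = 0.212) and -0.14 ± 0.07 (adjusted p = 0.200)).

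NDRG1 (ENSG00000104419, on chromosome 8), a stress-responsive gene that hypoxia induces, rose with BRSK2. It had 97.1, 95.7 and 102 CPM in BRSK2, 81.3, 80.1 and 76.8 in BRSK1, 69.0 and 56.5 in hcRED and 82.8 and 84.3 in Mock. The BRSK2 libraries stood above all others, the BRSK1 libraries were close to Mock, and hcRED was lowest. The change with BRSK2 was 0.44 ± 0.07 (adjusted p = 0.000259), 1.35 times the control level, and held without each library in turn. Against Mock alone it was 0.23 ± 0.08 (adjusted p = 0.0857) and did not pass, so the size of the NDRG1 change depends on which control is used. With BRSK1 it was 0.13 ± 0.07 (adjusted p = 0.248).

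VEGFA (ENSG00000112715, chr6:43770184-43786487, plus strand), the angiogenic growth factor, rose with BRSK2 and not with BRSK1. It had 42.01, 53.9 and 50.8 CPM in BRSK2, 39.8, 42.5 and 40.4 in BRSK1, 38.4 and 37.1 in hcRED and 44.4 and 39.5 in Mock. BRSK2 replicates 2 and 3 were above every other library, while replicate 1 lay within the Mock range. The log2 fold changes were 0.30 ± 0.08 (adjusted p = 0.0248) and 0.04 ± 0.08 (adjusted p = 0.826). The BRSK2 call was lost without BRSK2 replicate 2 or 3, hcRED replicate 1 or 3 or Mock replicate 3 (adjusted p from 0.0634 to 0.176), against Mock alone (adjusted p = 0.183) and with library totals in place of TMM factors (adjusted p = 0.0990).

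ADM, P4HA1, P4HA2, KDM3A and MXI1, which encode a vasodilator peptide, collagen prolyl hydroxylase subunits, a histone demethylase and a MYC antagonist, were called in no comparison. Their log2 fold changes against the controls lay between -0.13 ± 0.07 and 0.10 ± 0.08. ANKRD37, with 13 to 54 reads per library, had 0.79 ± 0.31 (adjusted p = 0.122) with BRSK1 and 0.22 ± 0.33 (adjusted p = 0.749) with BRSK2, neither of which passed.

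Of the 4 genes of the oxygen-sensing step itself only EGLN3 was called. HIF1A had 62.9 to 74.2 CPM in all 10 libraries, with log2 fold changes of -0.12 ± 0.06 (adjusted p = 0.238) for BRSK2 and -0.08 ± 0.06 (adjusted p = 0.502) for BRSK1. EPAS1 had 22.8 to 30.9 CPM, with 0.17 ± 0.09 (adjusted p = 0.289) and 0.01 ± 0.09 (adjusted p = 0.982). EGLN1, the main HIF prolyl hydroxylase, had -0.23 ± 0.07 (adjusted p = 0.0654) and -0.22 ± 0.07 (adjusted p = 0.0813), neither of which passed with edgeR over all 10 libraries. Without BRSK2 replicate 1 both passed (adjusted p = 0.00169 and 0.0159), and the BRSK2 value passed also without BRSK1 replicate 2 (adjusted p = 0.0480) and with DESeq2 (adjusted p = 0.0492).

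EGLN3 (ENSG00000129521, chr14:33924231-34462774, minus strand), a prolyl hydroxylase that is itself a HIF target, fell with both kinases. It had 14.2, 10.1 and 9.03 CPM in BRSK2, 12.8, 8.63 and 10.7 in BRSK1, 15.4 and 13.4 in hcRED and 17.3 and 16.1 in Mock. BRSK2 replicate 1 overlapped hcRED, and the BRSK1 libraries lay below all controls. The changes were -0.48 ± 0.15 (adjusted p = 0.0485) and -0.54 ± 0.14 (adjusted p = 0.0299). The BRSK2 call was lost without any of 7 libraries in turn (BRSK2 replicates 2 and 3, BRSK1 replicate 3 and each control, adjusted p from 0.0684 to 0.262), with the correction for GC content (adjusted p = 0.0511) and with the 4 controls as 1 group (adjusted p = 0.0581). The BRSK1 call was lost without BRSK1 replicate 2 or 3, hcRED replicate 1 or Mock replicate 2 or 3 (adjusted p from 0.0601 to 0.143).

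**Figure D4:**
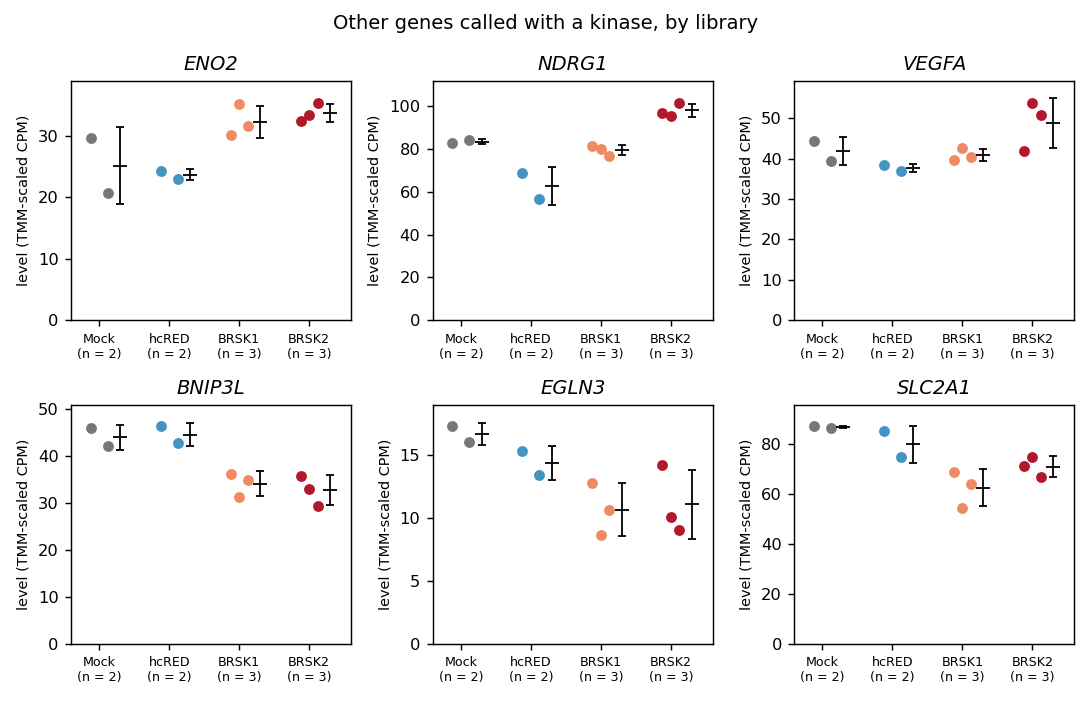
Level in TMM-scaled CPM (y axis, from 0) of ENO2, NDRG1, VEGFA, BNIP3L, EGLN3 and SLC2A1, by group (x axis); coloured points are libraries and the black mark is the mean ± SD. ENO2 and BNIP3L separate the kinase libraries from both controls, whereas NDRG1 is lowest in hcRED and highest in BRSK2.

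Against hcRED alone most of these differences did not pass. BRSK2 changed 4 of the 41 genes, where 3.58% of all tested genes were called: NDRG1, ENO2 and VEGFA rose (2.22% of all genes rose) and BNIP3L fell (1.36% of all genes fell). BRSK1 changed only NDRG1, which rose, where 0.785% of all tested genes were called, 0.585% higher and 0.201% lower. The median log2 fold change of the 41 genes was -0.03 with BRSK2 and -0.04 with BRSK1, beside 0.00 over all tested genes in both. No glycolytic enzyme fell at the threshold against hcRED, and the 16 had medians of 0.00 and -0.11. All BRSK2 libraries lay below both hcRED libraries in 8 of the 41 genes (16.9% of all tested genes) and above them in 9 (17.1%), close to the shares over all genes. With 2 hcRED libraries in place of 4 controls, the standard errors were also larger.

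NDRG1 had the largest called difference against hcRED, 0.64 ± 0.08 (adjusted p = 4.89e-05) with BRSK2, 1.56 times the hcRED level. It was the only member called with BRSK1, at 0.34 ± 0.08 (adjusted p = 0.0447), a call lost without any library except BRSK2 replicate 1, Mock replicate 2 and Mock replicate 3 (adjusted p from 0.0560 to 0.495) and with library totals in place of TMM factors (adjusted p = 0.0849). ENO2 differed from hcRED by 0.51 ± 0.12 (adjusted p = 0.0171) with BRSK2 and 0.45 ± 0.12 (adjusted p = 0.0663) with BRSK1. BNIP3L differed by -0.45 ± 0.10 (adjusted p = 0.00936) and -0.39 ± 0.09 (adjusted p = 0.0515), and VEGFA by 0.37 ± 0.10 (adjusted p = 0.0328) and 0.12 ± 0.10 (adjusted p = 0.638). Without BRSK2 replicate 3, hcRED replicate 1 or hcRED replicate 3 the BRSK2 calls of BNIP3L (adjusted p from 0.0775 to 0.151) and ENO2 (adjusted p from 0.0919 to 0.214) were lost. That of VEGFA was lost without these or BRSK2 replicate 2 (adjusted p from 0.139 to 0.280), and with library totals (adjusted p = 0.0995). The BRSK2 call of NDRG1 against hcRED held without each library in turn. The count of 4 was 8 without BRSK2 replicate 1 and 1 without BRSK2 replicate 3, where 6.11% and 1.01% of all tested genes were called. The BRSK1 count of 1 was 4 without BRSK2 replicate 1, where 2.52% of all tested genes were called. It was 0 without replicate 2 or 3 of either kinase, where 0.0356% to 0.63% were. Without hcRED replicate 1 the median log2 fold change of the 41 genes was 0.07 with BRSK2 and 0.02 with BRSK1. Without hcRED replicate 3 it was -0.12 and -0.13.

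Of the genes that fell against both controls, most did not pass against hcRED. LDHA differed from hcRED by -0.25 ± 0.08 (adjusted p = 0.0972) with BRSK2 and -0.17 ± 0.08 (adjusted p = 0.373) with BRSK1. PGAM1 differed by -0.29 ± 0.08 (adjusted p = 0.0524) and -0.22 ± 0.08 (adjusted p = 0.228), and passed with BRSK2 under DESeq2 (adjusted p = 0.0238) and limma-voom (adjusted p = 0.0492). SLC2A1 differed by -0.17 ± 0.09 (adjusted p = 0.324) and -0.36 ± 0.09 (adjusted p = 0.0535), and passed with BRSK1 under DESeq2 (adjusted p = 0.0281). TPI1, PGK1 and PKM had values from -0.22 ± 0.09 to -0.11 ± 0.07, and HK2 had 0.04 ± 0.12 with BRSK2 and -0.14 ± 0.12 with BRSK1.

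Between hcRED and Mock no member passed with edgeR, where 0.0295% of all tested genes were called. At an unadjusted p under 0.05 there were 10 of 41 members. The share of all tested genes at that unadjusted threshold was not counted, so the 10 have no background beside them. DESeq2 called 3 (HK2, PFKFB3 and NDRG1) of the 33 members to which it gave an adjusted p. It called 0.554% of all genes with an adjusted p. limma-voom called 0, beside 0.0177% of all tested genes. The hcRED mean lay below the Mock mean in 32 of the 41 genes and in 14 of the 16 enzymes, where it did in 50% of all tested genes, with a median log2 fold change of -0.15 beside 0.00 over all tested genes. In 23 of the 41 genes both hcRED libraries lay below both Mock libraries, where 20.3% of all tested genes did. The lowest p belonged to NDRG1 (-0.41 ± 0.09 (adjusted p = 0.0965)), PFKFB3 (-0.30 ± 0.08 (adjusted p = 0.188)) and HK2 (-0.52 ± 0.13 (adjusted p = 0.213)). LDHA had -0.24 ± 0.09 (adjusted p = 0.428) and BNIP3L 0.02 ± 0.10 (adjusted p = 0.979). Mock had the highest mean of the 4 groups in 25 of the 41 genes, where it did in 28.4% of all tested genes.

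Against Mock alone BRSK2 gave 11 lower and 2 higher members, where 5.5% of all tested genes were called (1.97% lower and 3.53% higher). BRSK1 gave 13 lower and 0 higher, where 6.69% were called (3.14% lower and 3.55% higher). HK2, PFKFB4, TPI1, PGAM1, PKM, LDHA, BNIP3L, EGLN1 and EGLN3 fell with both kinases in that comparison. ENO2 and ENO3 rose with BRSK2. These counts share the Mock libraries with those of hcRED against Mock, and the kinase libraries with the comparisons above. In 19 of the 41 genes both kinase means lay below both control means, where they did in 23.3% of all tested genes, and in 6 both lay above, where they did in 23.9%.

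The libraries of a group were also spread along the same axis. Relative to the mean of the 2 Mock libraries, the median log2 level of the 41 genes was -0.08 in hcRED replicate 1 and -0.20 in hcRED replicate 3. It was -0.10, -0.19 and -0.22 in BRSK2 replicates 1, 2 and 3, and -0.15, -0.21 and -0.21 in BRSK1 replicates 1, 2 and 3. hcRED replicate 3 thus lay among the kinase libraries, and BRSK2 replicate 1 lay next to hcRED replicate 1. Of the 41 genes, hcRED replicate 1 was above replicate 3 in 38 and of the 16 enzymes in all 16, where 50% of all genes were. BRSK2 replicate 1 was the highest of its group in 24 of 41 genes, where it was for 38.1% of all genes, and BRSK1 replicate 1 in 25, where it was for 33.5%. The summed level of the 16 enzymes was 9337, 8538 and 7935 CPM in BRSK2 replicates 1, 2 and 3, 8803, 7869 and 8103 in BRSK1, 9699 and 8765 in hcRED replicates 1 and 3 and 10252 and 10162 in Mock replicates 2 and 3. The share of counts on the overexpressed kinase was lowest in replicate 1 of each kinase (6.99%, 9.08% and 10.4% for BRSK2, and 4.72%, 6.52% and 6.96% for BRSK1). Its part in the spread was not tested.

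**Figure D5:**
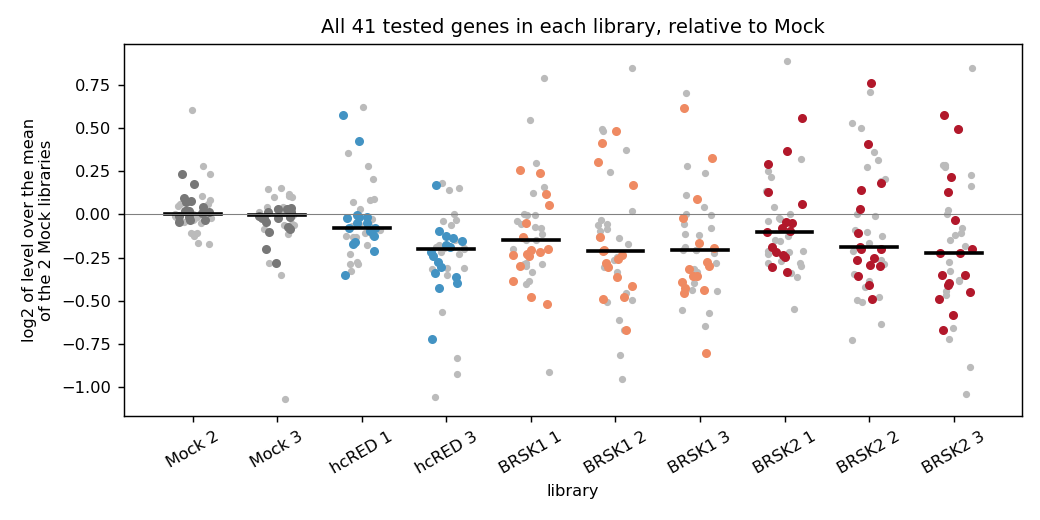
Level of each of the 41 tested genes in each library (x axis) relative to the mean of the 2 Mock libraries (y axis, log2); coloured points are the 16 glycolytic enzymes, grey points the other genes and the black bar the median of the 41. The bar of hcRED replicate 3, at -0.20, sits at the height of the kinase libraries, and that of hcRED replicate 1, at -0.08, sits closer to Mock.

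Between the 2 kinases no member passed with edgeR, where 0.348% of all tested genes were called. Unadjusted, 3 members had a p under 0.05, SLC2A1, VEGFA and NDRG1, a threshold for which the share over all genes was not counted. DESeq2 called 1 (NDRG1, adjusted p = 0.00898) of the 24 members to which it gave an adjusted p. It called 3.29% of all genes with an adjusted p. limma-voom called 0, beside 0.366% of all tested genes. BRSK2 was higher than BRSK1 in NDRG1 by 0.31 ± 0.07 (adjusted p = 0.0616), with the 3 BRSK2 libraries above the 3 BRSK1 libraries, in VEGFA by 0.26 ± 0.09 (adjusted p = 0.193) and in SLC2A1 by 0.18 ± 0.08 (adjusted p = 0.341). The genes that fell with both kinases had differences close to 0: -0.09 ± 0.08 for LDHA, -0.08 ± 0.08 for PGAM1, 0.02 ± 0.08 for PKM and -0.06 ± 0.09 for BNIP3L. By edgeR's test over all 10 libraries, HK2, SLC2A1, ENO1 and PFKFB2, called against the controls with BRSK1 and not with BRSK2, and PGK1, ENO3, VEGFA and NDRG1, called there with BRSK2 and not with BRSK1, were thus not shown to differ between the kinases. NDRG1 did pass with DESeq2, as above, and with no filter on low counts (adjusted p = 0.0129), and VEGFA passed without BRSK2 replicate 1 (adjusted p = 0.0447). A p that misses the threshold does not show that the kinases act alike.

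The wider pathway lists, given as counts and medians with no test of the list, covered genes outside the 42. Of 47 other genes of glycolysis, pyruvate use and monocarboxylate transport, 35 were tested. With BRSK2, 1 of the 35 was called (2.86%), below the 7.82% of all tested genes, and with BRSK1 2 were (5.71%), beside 6.43%. The median log2 fold changes were -0.08 and -0.10, beside 0.00 over all tested genes in both comparisons. With BRSK2 only MPC1, a subunit of the mitochondrial pyruvate carrier, was called, at -0.31 ± 0.08 (adjusted p = 0.0150). With BRSK1, PC (pyruvate carboxylase) fell, at -0.30 ± 0.08 (adjusted p = 0.0205), and SLC2A10, a glucose transporter of endomembranes, rose, at 0.55 ± 0.15 (adjusted p = 0.0331). Against hcRED alone none of the 35 was called with either kinase by edgeR, where 3.58% of all tested genes were with BRSK2 and 0.785% with BRSK1. At an unadjusted p under 0.05 there were 5 in each comparison, with no share over all genes counted at that threshold. The MPC1 call was lost without BRSK2 replicate 3, hcRED replicate 3 or Mock replicate 3 (adjusted p from 0.0582 to 0.104). The PC call was lost without BRSK1 replicate 2 or 3, hcRED replicate 1 or 3 or Mock replicate 2 (adjusted p from 0.0531 to 0.123), and the SLC2A10 call without BRSK1 replicate 2 or 3, hcRED replicate 1 or Mock replicate 2 or 3 (adjusted p from 0.0506 to 0.242).

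Of 62 other hypoxia targets, 56 were tested, and BRSK2 lowered 6 and raised 1, while BRSK1 lowered 7 and raised 0. That was 12.5% of the 56 in each comparison, beside 7.82% of all tested genes with BRSK2 (3.05% lower and 4.77% higher) and 6.43% with BRSK1 (2.66% lower and 3.77% higher). The median log2 fold changes of the 56 were -0.13 and -0.14, beside 0.00 over all tested genes. HILPDA, a lipid droplet protein induced by HIF, fell with both, at -0.48 ± 0.13 (adjusted p = 0.0231) with BRSK2 and -0.55 ± 0.13 (adjusted p = 0.0119) with BRSK1. JMJD6, a dioxygenase, fell at -0.28 ± 0.07 (adjusted p = 0.0134) with BRSK2 and PLOD2, a collagen lysyl hydroxylase, at -0.23 ± 0.06 (adjusted p = 0.0170). DDIT4, an inhibitor of mTORC1, fell with BRSK1 at -0.56 ± 0.11 (adjusted p = 0.00896), STC2, a secreted glycoprotein, at -0.25 ± 0.06 (adjusted p = 0.0171), and CITED2, a competitor of HIF for its coactivators, at -0.33 ± 0.08 (adjusted p = 0.0239). JMJD6 and CITED2 were called lower with the other kinase too. JMJD6 had -0.25 (adjusted p = 0.0290) with BRSK1, and CITED2 had -0.31 (adjusted p = 0.0262) with BRSK2. PPP1R15A, better known as a gene of the integrated stress response, was the gene that rose, at 1.00 ± 0.19 (adjusted p = 0.0256) with BRSK2. Against hcRED alone only JMJD6 passed, with BRSK2, at -0.31 ± 0.08 (adjusted p = 0.0358), 1 of the 56 (1.79%) beside 3.58% of all tested genes. With BRSK1 edgeR called 0, beside 0.785%. At an unadjusted p under 0.05 there were 13, with no share over all genes counted at that threshold. hcRED itself lay below Mock in 38 of these 56 genes, with a median of -0.10. Between the kinases STC2 alone was called, higher with BRSK2 at 0.34 ± 0.07 (adjusted p = 0.0282), 1 of the 56 beside 0.348% of all tested genes. The counts against the controls moved with the libraries, as did the share of all tested genes called. With BRSK2 that share was 13.1%, 3.81% and 2.05% without BRSK2 replicates 1, 2 and 3 in turn. With BRSK1 it was 2.46% and 1.21% without BRSK1 replicates 2 and 3 in turn, and 10.4% without BRSK2 replicate 1. The BRSK2 count of 7 was 0 without BRSK2 replicate 3, 2 without BRSK2 replicate 2, and 11 without BRSK2 replicate 1. The BRSK1 count of 7 was 0 without BRSK1 replicate 2 or 3, and 13 without BRSK2 replicate 1. Both counts also fell without hcRED replicate 1 or Mock replicate 3, and the BRSK1 count fell without hcRED replicate 3. The share of all tested genes called fell in these fits too, each of which left 1 library in a control group. The JMJD6 call against hcRED was lost without BRSK2 replicate 2 or 3 or either hcRED library (adjusted p from 0.103 to 0.229), and the STC2 call between the kinases without any of 6 libraries in turn (BRSK2 replicates 2 and 3, each BRSK1 library and hcRED replicate 3, adjusted p from 0.0504 to 0.138).

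Of 35 regulators of HIF, 34 were tested. BRSK2 raised 2 and lowered 3 (14.7% called, beside 7.82% of all tested genes), and BRSK1 raised 2 and lowered 1 (8.82%, beside 6.43%). The median log2 fold changes were -0.07 and -0.04, beside 0.00 over all tested genes. The HIF partner ARNT2 rose with both, at 0.40 ± 0.08 (adjusted p = 0.00275) and 0.44 ± 0.08 (adjusted p = 0.00192), as did USP20, a deubiquitinase that acts on HIF1A, at 0.46 ± 0.07 (adjusted p = 0.000505) and 0.26 ± 0.07 (adjusted p = 0.0359). ELOB, a subunit of the VHL ligase, and IDH1, a cytosolic isocitrate dehydrogenase, fell with BRSK2 at -0.30 ± 0.06 (adjusted p = 0.00524) and -0.35 ± 0.08 (adjusted p = 0.00676), as did VHL, at -0.20 ± 0.06 (adjusted p = 0.0426), a gene named outside the rule for this list after its value was seen. CITED4 fell with BRSK1 at -0.62 ± 0.19 (adjusted p = 0.0475). ARNT2 also passed against hcRED alone, with BRSK2 at 0.39 ± 0.10 (adjusted p = 0.0229) and with BRSK1 at 0.43 ± 0.09 (adjusted p = 0.0310), and USP20 and ELOB passed with BRSK2, at 0.45 ± 0.09 (adjusted p = 0.00586) and -0.27 ± 0.08 (adjusted p = 0.0455). These were 3 of 34 with BRSK2 (8.82%, beside 3.58% of all tested genes) and 1 of 34 with BRSK1 (2.94%, beside 0.785%). The ARNT2 calls against the controls and the USP20 call with BRSK2 held without each library in turn. Those of ELOB (adjusted p = 0.0621) and IDH1 (adjusted p = 0.0955) were lost without BRSK2 replicate 3. That of VHL was lost without any library except BRSK2 replicate 1, BRSK1 replicate 2 and Mock replicate 2 (adjusted p from 0.0507 to 0.210). The BRSK1 calls of CITED4 and USP20 were lost without BRSK1 replicate 3 or any 1 of the 4 controls, and also without BRSK1 replicate 2, BRSK2 replicate 2 or BRSK2 replicate 3 for CITED4 (adjusted p from 0.0518 to 0.238) and BRSK1 replicate 1 for USP20 (adjusted p from 0.0590 to 0.230). Against hcRED every one of these calls was lost without hcRED replicate 1 or hcRED replicate 3, and all but that of USP20 without replicate 3 of the kinase compared (adjusted p from 0.0506 to 0.321 over the libraries left out).

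The authors' deposited table for BRSK2 lists 7 of the members, namely BNIP3L, ENO2, PGAM1, LDHA, NDRG1, PKM and PGK1, with adjusted p-values from 0.00849 to 0.0438. The authors' deposited table for BRSK1 lists 10 of them, all called with BRSK1 above except that HK2 is not listed, with adjusted p-values from 0.00943 to 0.0493. All of these entries had the same direction as the values given here and were also called here. TPI1, ENO3, VEGFA and EGLN3, called here with BRSK2 against the controls, are not listed in the authors' BRSK2 table. In the authors' deposited table LDHA has a log2 fold change of -0.37 with BRSK2 and -0.28 with BRSK1, and NDRG1 0.45 with BRSK2.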

How the data were processed

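RNA was sequenced from 10 HEK293T libraries, with 3 µg of RNA per sample, per the labels. Groups come from the genotype label and replicate numbers from the titles. The authors deposited raw read counts per gene, 1 table per kinase. Both tables hold the same control counts (0 genes with a difference) and were merged by gene ID, with 0 unused count columns and 0 blank IDs. The submitters' processing notes name STAR, edgeR, limma and hg38. Not given in the sources used here are the read counter, whether it used strand, and the annotation release. The authors also deposited log2 CPM values, used only to check the columns against the counts (Pearson r at least 0.9999 across genes within each library), and tables of their comparisons with log2 fold changes, p-values and limma's scores per the file headers. The scores were not used.

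Counts were tested with edgeR 4.0.16 in R 4.3.3: TMM factors, filterByExpr (minimum count 10, minimum total 15), glmQLFit and glmQLFTest with robust estimation, in a fit of 4 group means over all 10 libraries (biological coefficient of variation 8.06%). A call is a Benjamini-Hochberg adjusted p under 0.05 over 16936 tested genes. Each SE is |log2 fold change| over the root of the F statistic. Levels are TMM-scaled CPM. On data simulated for BRSK2 against the controls over 16400 genes, recovery was 88% for genes with a log2 fold change of 0.5 and 100% at a log2 fold change of 1, and 13 unchanged genes were called. The changes were put into 200 genes above a further cutoff on level. hcRED and Mock shared the same mean there, with no replicate effect. Smaller changes, as most of those called here were, were not simulated.

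The 42 members, the wider lists, the markers, the tests and the alternatives were chosen with earlier results of these data known. Named with values are members called in any comparison, the 10 with the smallest p against the controls for each kinase, and 12 genes of known role; from each wider list, up to 4 called genes per comparison. The alternatives were RLE factors, library totals alone, both kinase genes left out of the scaling, no filter on low counts, a filter of 1 CPM in 3 or more libraries, a correction for GC content (lowess, span 0.3), DESeq2 1.42.0, limma-voom (limma 3.58.1), an adjusted p under 0.01, a replicate block, only the groups compared, Mock alone or the 4 controls as 1 group, and each library left out. Plots used matplotlib 3.10.9 (Python 3.11.15).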

Additional observations from a re-analysis of the deposited data

How the results depend on the processing

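Alternatives were run for the 41 tested members in the 6 comparisons and for the 31 calls in the wider lists, and no call changed direction in them. Of 611 runs on the 27 called values of members, 488 kept the call and 123 lost it. Of 4719 runs on the 219 values not called, 153 passed the threshold (48 values) and 191 changed sign while still not called. Of 701 runs on the 31 calls in the wider lists, 176 lost the call. For BRSK2 against the controls the 11 members called were 21 with library totals, 20 with the replicate block and 5 at an adjusted p under 0.01, and 4 to 18 with a library left out. For BRSK1 against the controls the 11 were 19 with the replicate block, 2 at an adjusted p under 0.01, and 1 to 15 with a library left out. For BRSK2 against hcRED the 4 were 10 with library totals, 9 with the replicate block, 2 at an adjusted p under 0.01, and 1 to 8 with a library left out. For BRSK1 against hcRED the 1 was 2 with library totals, the 1 CPM filter or limma-voom, 4 with no filter, the GC correction, DESeq2 or only the groups compared, 3 with the replicate block, 0 at an adjusted p under 0.01, and 0 to 4 with a library left out. For BRSK2 against BRSK1 the 0 was 1 with no filter, the replicate block or DESeq2, and 0 to 1 with a library left out. For hcRED against Mock the 0 was 3 with no filter or DESeq2, 11 with the replicate block, and 0 to 2 with a library left out. The share of all tested genes called moved too. With the replicate block it was 12.7% for BRSK2 and 11.8% for BRSK1 against the controls, beside 7.82% and 6.43%. Against hcRED it was 5.89% and 2.04%, beside 3.58% and 0.785%. It was 1.58% between the kinases (beside 0.348%) and 2.56% for hcRED against Mock (beside 0.0295%). With library totals it was 17.7% for BRSK2 against the controls and 12.6% against hcRED. Library totals moved the median log2 fold change of all tested genes to -0.10 for BRSK2 against the controls and -0.13 against hcRED. At an adjusted p under 0.01 the share was 2.8% for BRSK2 and 1.51% for BRSK1 against the controls, and 1.07% for BRSK2 against hcRED. For BRSK1 against hcRED it was 1.14% with no filter, 1.43% with the GC correction, 1.96% with DESeq2 and 2.48% with only the groups compared. Between the kinases it was 0.559% with no filter and 3.29% with DESeq2. For hcRED against Mock it was 0.38% with no filter and 0.554% with DESeq2. Apart from the shift of the median with library totals, the cause of these moves was not tested.

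The labels do not say whether equal replicate numbers mark paired samples, and this was not settled here. Over 12 same-numbered pairs of libraries the correlation of deviations from the group means ran from -0.05 to 0.16. Of these pairs, 2 exceeded 0.1 (across genes, which are not independent replicates). The median was 0.05 for same-numbered pairs and -0.06 for other pairs. In each control group the 2 libraries have exactly opposite deviations, so these 2 medians are not separate observations. With the replicate block more genes were called in every comparison, as given above. A shared effect of the replicate number was not tested. Leaving out a control left that group with 1 library, whose variability was then taken from the other groups. With groups of 2 and 3 the precision is set by the number of libraries more than by depth, except for genes with few reads such as ANKRD37 and SLC16A3.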
